A study of Danio rerio with 6 samples.

Results

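Among the 31901 genes counted in regenerating zebrafish caudal fins, 83 were strongly restricted to the proximal part of the regrowing tissue. A gene was taken when its mean over the 3 proximal libraries was at least 3 CPM (counts per 1000000 gene-assigned reads) and its lowest proximal value was at least 5 times its highest distal value. The members were therefore chosen on the same proximal and distal values that are given here, and their levels and fold changes are a description without a test. The same rule turned round gave 158 genes restricted to distal tissue.

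The tissue came from zebrafish that carry an shha:eGFP transgene, a green fluorescent reporter of the Hedgehog ligand gene shha, in both groups. Regenerates were collected at 96 hours post amputation and divided by microdissection into a proximal and a distal piece, told apart by the reporter's distal signal. There were 3 proximal and 3 distal samples, numbered 2, 3 and 4 in both groups, and each sample pooled the tissue of 4 fins. A p-value between regions therefore measures the spread between these pools, unless the replicate number was also in the model. RNA was sequenced from whole pieces, so a lower level may mean fewer cells of a type or less RNA per cell, and these cannot be told apart. Age, sex and strain background of the fish are not given in the sources used here.

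A fish fin regrows from its stump outward. The distal end holds blastema cells under a wound epidermis, while tissue nearer the stump is older and has begun to form bone, joints, pigment pattern and layered skin. Skin attaches to the dermis through keratin filaments, hemidesmosomes and anchoring fibrils, and teleost skin also holds mucus cells and pigment cells derived from the neural crest. These are the settings in which some of the recognisable genes of the set are known.

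Gene names are those of the name table that came with the identifiers. That table writes some zebrafish genes under the capital name of their human counterpart, so a name such as TYRP1 can stand for more than 1 zebrafish gene and is then given with its identifier. It named 81 of the 83 genes. Counts were not divided by transcript length, so levels are compared between libraries for the same gene and not between genes.

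Gene-assigned reads numbered between 20113859 and 23629159 per library, and 3 reads, taken as the floor of detection, equal 0.127 to 0.149 CPM. The pieces were told apart by the reporter's distal signal, so the level of the reporter's own gene is no separate check of the dissection. SHH (ENSDARG00000068567) had 5.95 CPM in proximal and 17.7 CPM in distal libraries (log2 fold change -1.45, SE 0.17, adjusted p = 6.27e-04; edgeR quasi-likelihood test, Benjamini-Hochberg adjustment over 18455 genes). A list of distal blastema signalling genes was chosen with earlier results of these data known. All 13 of its tested genes, led by msx2b (log2 fold change -3.41, SE 0.14, adjusted p = 5.04e-06), were lower in proximal tissue. Over all genes 5478 passed that test at an adjusted p under 0.05, or 29.7%, of which 2661 (14.4%) were higher and 2817 (15.3%) lower in proximal tissue. With the replicate number as a block 8939 passed (48.4%), of which 4633 (25.1%) were higher and 4306 (23.3%) lower.

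All 83 genes passed the count filter, and all 83 were called higher in proximal tissue, where 14.4% of the genes tested were. The rule used this contrast, so nothing is read from that count. Their median log2 fold change was 4.01, with a range of 2.69 to 8.95, against a median of 0.01 over all genes tested. Scaling by library size alone moved that overall median by 0.12 toward distal tissue. It turned the direction of none of the 21 genes given in full, which the 5-fold gap of the rule fixes in advance. Mean proximal levels ran from 3.03 to 7518 CPM, with a median of 11.1 CPM. The genes were mostly modest in read number: 37 had a mean proximal level under 10 CPM and 8 had at least 100 CPM. For 33 genes the lowest proximal library was at least 10 times the highest distal library, and for 10 genes at least 30 times. With distal values under 3 reads raised to 3 reads, these counts were 32 and 8.

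Restricted did not mean absent from distal tissue. In 69 of the 83 genes every distal library held at least 3 reads, and in 3 genes (elnb, PAPPA2 and ENSDARG00000097416) every distal library held fewer than 3. For 18 genes the SE of the fitted fold change was below counting error and understates the uncertainty.

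Just inside the fold limit stood NDRG4, ifi44a3 and pmela, whose lowest proximal value was 5.03, 5.11 and 5.12 times the highest distal value. Just outside stood lamb2l, DIPK1C and slc2a11b at 4.96, 4.92 and 4.90 times. At the level limit, KANK1, fabp1b.2 and ENSDARG00000097416, which has a provisional name, were inside with mean proximal levels of 3.03, 3.10 and 3.13 CPM. GRIK3, hcn5 and si:ch211-209m20.7 were outside with 2.92, 2.68 and 2.58 CPM.

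**Figure D1:**
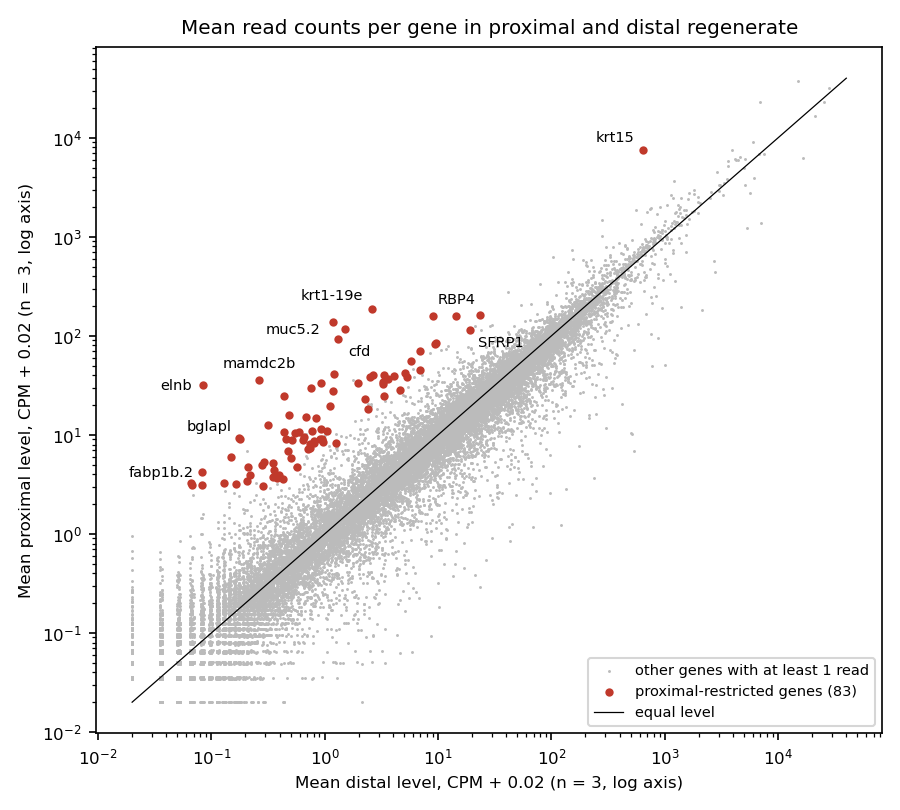
Mean level of every gene with at least 1 read in proximal libraries (vertical) against distal libraries (horizontal), in CPM plus 0.02 on log axes, n = 3 per region. The 83 proximal-restricted genes (red) lie above the line of equal level by rule; krt15 stands apart at 7518 CPM in proximal and 646 CPM in distal tissue, and elnb is the red point farthest from the line.

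Reads of the 83 genes made up 0.956%, 0.954% and 1.104% of gene counts in proximal libraries 2, 3 and 4, against 0.0714%, 0.0924% and 0.0860% in distal libraries 2, 3 and 4. Proximal library 4 was the highest, with a 95% Wilson interval of 1.099% to 1.11%, which covers counting error only. The means were 1.00 ± 0.0860% in proximal and 0.0832 ± 0.0108% in distal libraries (SD, n = 3 each). A single gene, krt15, held most of this share. It took 74.9 ± 1.67% of the members' reads in proximal and 77.5 ± 0.307% in distal libraries. Without krt15 the other 82 genes made up 0.253 ± 0.0297% of gene counts in proximal and 0.0187 ± 0.00219% in distal libraries.

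The set held 6 genes of skin attachment and keratin filaments, krt15, krt1-19e, col17a1a, lamb4 and a pair named col7a1l. krt15 (ENSDARG00000036840) encodes a type I keratin, a filament protein that in mammals is found in basal keratinocytes. It had 7333, 7004 and 8217 CPM in proximal libraries 2, 3 and 4, against 551, 719 and 666 CPM in distal libraries 2, 3 and 4. It ranked 8th, 10th and 7th by reads among all genes in proximal libraries 2, 3 and 4, and 196th, 150th and 179th in distal libraries 2, 3 and 4. Its log2 fold change was 3.67 (SE 0.15).

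krt1-19e (ENSDARG00000090268), a keratin that marks basal epidermal cells in zebrafish, had 119.9, 154 and 292 CPM in proximal libraries 2, 3 and 4, against 2.28, 2.19 and 3.28 CPM in distal libraries 2, 3 and 4. Library 4 was the highest in both regions. The log2 fold change was 6.33 with an SE of 0.43. col17a1a (ENSDARG00000069415), a chain of the hemidesmosome collagen XVII, had 119, 168 and 193 CPM in proximal libraries 2, 3 and 4, against 7.92, 9.80 and 9.45 CPM in distal libraries 2, 3 and 4. Proximal library 2 was the lowest of its region, and the log2 fold change was 4.27 (SE 0.21). lamb4, a laminin beta chain of basement membranes, averaged 83.4 ± 9.51 CPM in proximal and 9.41 ± 2.14 CPM in distal libraries (SD, n = 3 each). The col7a1l genes carry the name of collagen VII, the protein of anchoring fibrils. ENSDARG00000069692 averaged 70.6 ± 11.3 CPM in proximal and 6.91 ± 3.04 CPM in distal libraries, and ENSDARG00000093135 averaged 8.08 ± 1.09 CPM in proximal and 0.719 ± 0.0590 CPM in distal libraries. They share a name, so reads of the pair could be split or dropped by the counting, and their separate levels are uncertain.

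Epidermal genes outside the set were shifted less than these genes. The rule took genes with at least a 5-fold gap, so this order was largely fixed in advance. Of the 8 tested genes of an epidermal list that are not members, 5 were called higher in proximal tissue, 1 lower and 2 not called, and their median log2 fold change was 0.55. The largest change was that of krt5, a basal keratin (log2 fold change 1.44, SE 0.11, adjusted p = 8.33e-05). TP63, the transcription factor of basal keratinocytes, had 469.6 CPM in proximal and 346 CPM in distal libraries (log2 fold change 0.56, SE 0.10, adjusted p = 0.00504), and cldni, a tight junction claudin, was lower (log2 fold change -0.45, SE 0.11, adjusted p = 0.01999). The cldni call was lost when distal library 3 or 4 or proximal library 2 or 3 was left out. Summed over these 8 genes, levels were 48109 to 53332 CPM in proximal and 24767 to 25460.5 CPM in distal libraries. Most of the difference between these sums lay in krt5, which averaged 37048 CPM in proximal and 14914 CPM in distal libraries. The part of this epidermal difference in the result for the keratin and basement membrane genes was not tested.

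Among genes of mucus cells, 3 were members. muc5.2 (ENSDARG00000058556), a gel-forming mucin, had 109.8, 160.0 and 78.7 CPM in proximal libraries 2, 3 and 4, against 1.02, 2.37 and 1.09 CPM in distal libraries 2, 3 and 4. Library 3 was the highest in both regions, and library 4 was the lowest proximal library. Its log2 fold change was 6.37 (SE 0.37). muc5.1 (ENSDARG00000070331), another mucin of the same kind, had 5.76, 4.43 and 7.82 CPM in proximal libraries 2, 3 and 4, against 0.140, 0.0447 and 0.199 CPM in distal libraries 2, 3 and 4. Here proximal library 4 was the highest. The distal values rest on 3, 1 and 4 reads, and the pooled ratio of proximal to distal was 47.8-fold (95% counting interval 24.05 to 112). foxa3, a forkhead factor that promotes goblet cells in mouse airway, averaged 3.21 ± 1.22 CPM in proximal and 0.146 ± 0.181 CPM in distal libraries (SD, n = 3 each), and 2 of its distal libraries were under 3 reads. Of 8 tested non-members on a list of mucus cells and ionocytes, 3 were called higher in proximal tissue and 5 were not called, with a median log2 fold change of 0.27. With the replicate block 4 were higher and 1 lower. Summed over the 16 listed non-members, levels were 702 to 776 CPM in proximal and 512 to 564 CPM in distal libraries. Most of these sums lay in ca2 and ATP1B1 (ENSDARG00000013144). ca2 averaged 398 CPM in proximal and 305 CPM in distal libraries, and ATP1B1 280 CPM in proximal and 223 CPM in distal libraries. AGR2, a protein disulfide isomerase needed for mucin folding, was higher (log2 fold change 3.09, SE 0.28, adjusted p = 1.51e-04), as was SPDEF, a goblet cell transcription factor in mammals (log2 fold change 3.86, SE 0.80, adjusted p = 0.00855). SPDEF averaged only 0.705 CPM in proximal libraries, against 0, 0 and 0.149 CPM in distal libraries 2, 3 and 4, so its fold change rests on few reads. The calcium channel TRPV6 of ionocytes had 1.19 CPM in proximal and 1.20 CPM in distal libraries (log2 fold change 0.10, SE 0.36, adjusted p = 0.876), and the ionocyte factors foxi3a and foxi3b were too low to test.

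Pigment cell genes formed a further group of 5 members. pmela (ENSDARG00000091298), which forms the fibrils of melanosomes, had 28.9, 43.1 and 26.3 CPM in proximal libraries 2, 3 and 4, against 2.84, 5.15 and 1.84 CPM in distal libraries 2, 3 and 4. Library 3 was the highest in both regions, and the log2 fold change was 3.43 (SE 0.34). TYRP1 encodes an enzyme of melanin synthesis and stands for 2 genes here, both members. ENSDARG00000056151 had 29.2, 39.9 and 33.8 CPM in proximal libraries 2, 3 and 4, against 2.42, 4.92 and 2.44 CPM in distal libraries 2, 3 and 4. ENSDARG00000029204 had 4.53, 5.71 and 4.56 CPM in proximal libraries 2, 3 and 4, against 0.279, 0.403 and 0.0994 CPM in distal libraries 2, 3 and 4. Library 3 was again the highest in both regions for each of the pair, and the log2 fold changes were 3.51 (SE 0.27) and 4.31 (SE 0.36).

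gch2 (ENSDARG00000099101), a GTP cyclohydrolase of yellow pteridine synthesis in xanthophores, had 20.1, 26.3 and 12.7 CPM in proximal libraries 2, 3 and 4, against 1.07, 1.48 and 0.746 CPM in distal libraries 2, 3 and 4. Library 4 was the lowest in both regions and library 3 the highest. Its log2 fold change was 4.26 (SE 0.32). PAX7 (ENSDARG00000070818), a paired-box factor of the xanthophore lineage in zebrafish, averaged 3.92 ± 0.564 CPM in proximal and 0.371 ± 0.256 CPM in distal libraries (SD, n = 3 each).

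Other melanophore genes went the same way. Of the 8 tested melanophore genes that are not members, 6 were called higher in proximal tissue, 1 lower and 1 not called. DCT, a melanin synthesis enzyme, had 1.57 CPM in proximal and 0.0636 CPM in distal libraries (log2 fold change 4.64, SE 0.39, adjusted p = 1.16e-04). The lower gene was MITF (ENSDARG00000037833; log2 fold change -0.84, SE 0.22, adjusted p = 0.0219), whose call was lost when distal library 3 or 4 or proximal library 2 or 4 was left out, while the other MITF gene (ENSDARG00000003732) was higher (log2 fold change 2.03, SE 0.46, adjusted p = 0.0126). Summed over the 9 listed genes that are not members, levels were 18.2 to 21.9 CPM in proximal and 9.31 to 12.3 CPM in distal libraries. Iridophore and xanthophore genes were mixed. Of 12 tested non-members, 6 were higher in proximal tissue and 2 lower, or 7 and 3 with the replicate block. slc2a15b, a sugar transporter gene needed by xanthophores, was higher (log2 fold change 2.72, SE 0.21, adjusted p = 7.18e-05), and the melanosome glycoprotein gene GPNMB, also a marker of iridophores, was lower (log2 fold change -2.21, SE 0.37, adjusted p = 0.00308). SOX10, a neural crest factor on the Schwann cell list, was also higher (log2 fold change 2.75, SE 0.32, adjusted p = 5.67e-04).

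**Figure D2:**
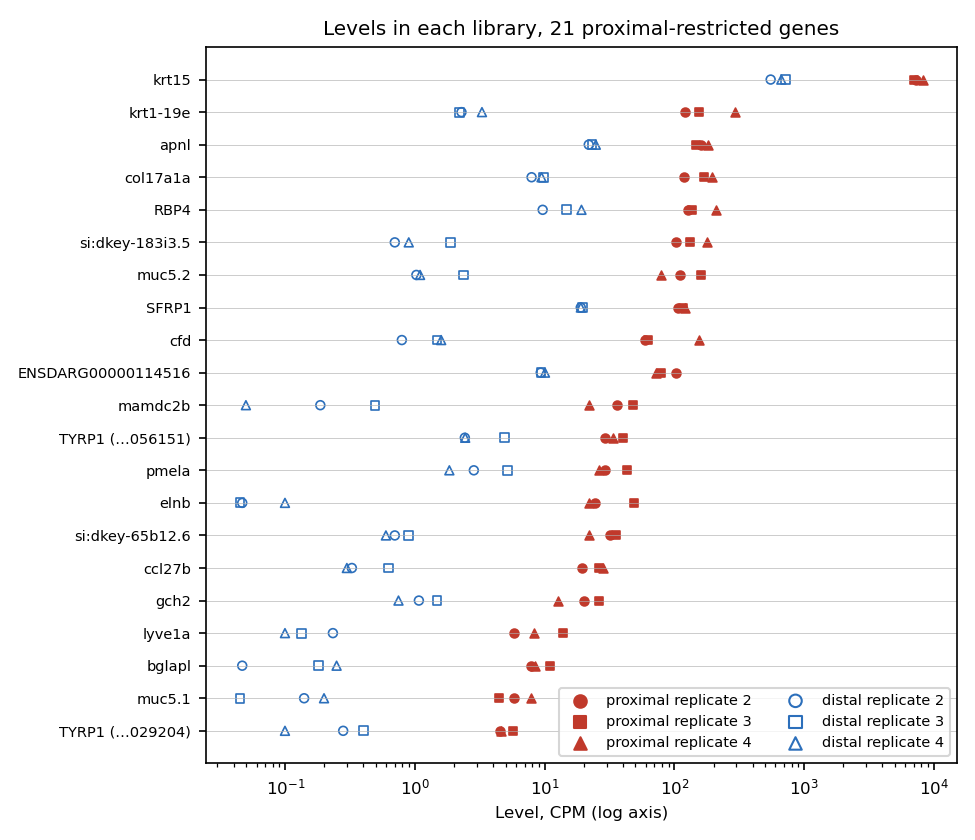
Level in each library, in CPM on a log axis, of the 21 proximal-restricted genes given in full, with proximal libraries as filled red and distal libraries as open blue symbols and a shape for each replicate number. Proximal and distal symbols do not overlap for any gene, which the rule fixes; among distal libraries mamdc2b ran from 0.0497 to 0.492 CPM, the widest spread shown.

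The sharpest gap in the set belonged to an elastic fibre gene. elnb (ENSDARG00000069017), which encodes the elastic fibre protein elastin, had 24.4, 48.5 and 21.8 CPM in proximal libraries 2, 3 and 4, against 0.0466, 0.0447 and 0.0994 CPM in distal libraries 2, 3 and 4. Proximal library 3 was about as high as libraries 2 and 4 together. The distal values rest on 1, 1 and 2 reads, each under the floor of 3, and the pooled ratio was 502-fold (95% counting interval 196 to 1845). The fitted log2 fold change of 8.95 depends on the prior count added to such low values. mamdc2b (ENSDARG00000073695), a matrix protein with MAM domains, had 36.1, 48.3 and 22.1 CPM in proximal libraries 2, 3 and 4, against 0.186, 0.492 and 0.0497 CPM in distal libraries 2, 3 and 4. Library 3 was the highest and library 4 the lowest in both regions. The distal values rest on 4, 11 and 1 reads, and the ratio was 142-fold (95% counting interval 87.4 to 249). Its log2 fold change was 7.23 (SE 0.48), and 8.23 without distal library 3.

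Other matrix members were mfap5, MFAP4, SMOC2, FLRT2, IGSF10, ITGBL1 and olfml2ba. mfap5, a protein of the microfibrils that elastin is laid on, averaged 39.6 ± 11.4 CPM in proximal and 4.07 ± 1.03 CPM in distal libraries (SD, n = 3 each), with a log2 fold change of 3.41 (SE 0.28). MFAP4 (ENSDARG00000038683) averaged 10.9 CPM in proximal and 0.757 CPM in distal libraries; its mammalian counterpart binds elastic fibres, and in zebrafish genes of this name also mark macrophages. It belongs to a family of many similar copies whose reads the counting could split or drop, so its level is uncertain. SMOC2, a matricellular protein of the SPARC family, averaged 14.7 CPM in proximal and 0.825 CPM in distal libraries, and olfml2ba, an olfactomedin-like protein, 15.7 CPM in proximal and 0.467 CPM in distal libraries. FLRT2 is a leucine-rich transmembrane protein, IGSF10 an immunoglobulin superfamily protein and ITGBL1 an integrin beta-like protein. Their log2 fold changes were 4.77, 4.60 and 3.49.

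The rule fixed the direction of these members in advance, so setting them beside other matrix genes is a description. Most called genes of the fibroblast and blastema matrix list, which held no member, went the other way. Of the 17 tested genes of that list, 3 were higher in proximal tissue and 9 lower (11 lower with the replicate block), with a median log2 fold change of -1.21. The actinodin gene and2, which builds fin fold fibres, was lower (log2 fold change -3.44, SE 0.21, adjusted p = 2.54e-05), and the type I collagen gene COL1A2 was higher (log2 fold change 0.66, SE 0.12, adjusted p = 0.00432). Small leucine-rich proteoglycans, with 3 of 12 higher and 6 lower, were also without a member. The lowest was OGN (ENSDARG00000044132; log2 fold change -3.09, SE 0.12, adjusted p = 3.64e-06) and the highest BGN (ENSDARG00000002945; log2 fold change 1.78, SE 0.31, adjusted p = 0.00404).

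Secreted Wnt antagonists were represented by SFRP1 and SFRP2, frizzled-related proteins that bind Wnt ligands outside the cell. SFRP1 (ENSDARG00000035521) had 106, 116 and 119.8 CPM in proximal libraries 2, 3 and 4, against 19.0, 19.6 and 19.0 CPM in distal libraries 2, 3 and 4. Its libraries lay close together within each region, and the log2 fold change was 2.69 (SE 0.10). SFRP2 (ENSDARG00000070050) averaged 33.8 ± 4.66 CPM in proximal and 1.96 ± 0.427 CPM in distal libraries (SD, n = 3 each), with a log2 fold change of 4.22 (SE 0.19). WNT5A and WNT5B, ligands of the distal list, were lower in proximal tissue (log2 fold change -2.17, SE 0.21, adjusted p = 2.01e-04; log2 fold change -2.32, SE 0.09, adjusted p = 3.64e-06). Antagonists did not all go the way of the members. dkk1b, a secreted Wnt antagonist on the same distal list, had 0.828 CPM in proximal and 8.73 CPM in distal libraries (log2 fold change -3.28, SE 0.28, adjusted p = 1.22e-04).

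A group of 7 members are chemokines or belong to the complement system or its relatives. cfd (ENSDARG00000039579), complement factor D, a protease of the alternative pathway, had 59.0, 62.4 and 154 CPM in proximal libraries 2, 3 and 4, against 0.792, 1.48 and 1.59 CPM in distal libraries 2, 3 and 4. Proximal library 4 was well above the other two, and the log2 fold change was 6.30 (SE 0.53). ccl27b (ENSDARG00000079713), whose mammalian relative CCL27 is a chemokine of keratinocytes, had 19.4, 26.3 and 27.9 CPM in proximal libraries 2, 3 and 4, against 0.326, 0.626 and 0.298 CPM in distal libraries 2, 3 and 4. Its proximal libraries were similar, and the log2 fold change was 5.97 (SE 0.28). The chemokine ccl25b averaged 40.5 ± 11.5 CPM in proximal and 3.31 ± 1.12 CPM in distal libraries and ccl44 averaged 4.67 ± 2.04 CPM in proximal and 0.190 ± 0.0573 CPM in distal libraries (SD, n = 3 each). MASP1, a protease of the lectin pathway, c4, which feeds the classical and lectin pathways, and C1QTNF2, a C1q-related secreted protein, had log2 fold changes of 3.78, 3.45 and 3.39.

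Leukocyte genes, a list without a member, differed less, which the rule largely fixes in advance. Of 12 tested leukocyte genes, 5 were called higher in proximal tissue and 7 were not called, and the median log2 fold change was 0.21. The count of 5 dropped to 3 with library size alone, without any of distal libraries 2, 3 or 4, and without proximal library 2 or 3. The chemokine receptor gene CXCR4 (ENSDARG00000057633) had 48.5 CPM in proximal and 24.4 CPM in distal libraries (log2 fold change 1.11, SE 0.21, adjusted p = 0.00515). Summed over the list, levels were 278 to 356 CPM in proximal and 265 to 286 CPM in distal libraries, and none of its genes was at 0 in every library. The part of leukocytes in the chemokine and complement result was not tested.

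Names of mineralised tissue were carried by 2 members. bglapl (ENSDARG00000104467), an osteocalcin-like gene of bone matrix, had 7.79, 10.9 and 8.43 CPM in proximal libraries 2, 3 and 4, against 0.0466, 0.179 and 0.249 CPM in distal libraries 2, 3 and 4. The distal values rest on 1, 4 and 5 reads, and the pooled ratio was 57.7-fold (95% counting interval 31.1 to 121). ambn, whose mammalian counterpart is the enamel matrix protein ameloblastin, averaged 10.5 ± 4.59 CPM in proximal and 0.525 ± 0.284 CPM in distal libraries (SD, n = 3 each). The bone list itself was split, with 4 of 17 tested genes higher in proximal tissue and 4 lower, or 9 lower with the replicate block. The bone matrix gene spp1 was higher (log2 fold change 2.77, SE 0.33, adjusted p = 6.03e-04), and enpp1, an inhibitor of mineralisation, was lower (log2 fold change -1.84, SE 0.11, adjusted p = 1.88e-05). bglap, the osteocalcin gene of the list, was too low to test at 0.0305 CPM in proximal libraries and 0 reads in distal libraries.

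Genes that handle retinoids and lipids included RBP4 (ENSDARG00000101199), the retinol carrier, with 126, 137 and 209 CPM in proximal libraries 2, 3 and 4, against 9.64, 14.8 and 19.2 CPM in distal libraries 2, 3 and 4. Library 4 was the highest and library 2 the lowest in both regions. The log2 fold change was 3.57 (SE 0.31). On the retinoic acid list, 2 of the 14 other tested genes were higher in proximal tissue and 6 lower, or 3 and 9 with the replicate block. DHRS3 (ENSDARG00000044982), a retinal reductase, was higher (log2 fold change 1.45, SE 0.27, adjusted p = 0.00539), and CYP26C1, which degrades retinoic acid, was lower (log2 fold change -2.65, SE 0.49, adjusted p = 0.00494), as was ALDH1A2, which makes it (log2 fold change -2.48, SE 0.21, adjusted p = 1.03e-04). slc51a, a subunit of a bile acid and steroid transporter, averaged 42.6 CPM in proximal and 5.098 CPM in distal libraries, and BSCL2, the lipid droplet protein seipin, 18.2 CPM in proximal and 2.39 CPM in distal libraries. adh8a, an alcohol dehydrogenase, averaged 9.07 CPM in proximal and 0.432 CPM in distal libraries.

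fabp1b.2, a liver-type fatty acid binding protein, rested mainly on 1 library. It had 1.02, 0.823 and 7.45 CPM in proximal libraries 2, 3 and 4, against 0.140, 0 and 0.0497 CPM in distal libraries 2, 3 and 4. The galectin lgals4 was similar, with 1.48, 1.83 and 6.38 CPM in proximal libraries 2, 3 and 4, against 0.140, 0 and 0 CPM in distal libraries 2, 3 and 4. In both, proximal library 4 was at least 3 times as high as the other proximal libraries, and without that library the mean proximal level was 0.919 CPM for fabp1b.2 and 1.65 CPM for lgals4, under the limit of 3 CPM.

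lyve1a (ENSDARG00000075833), a hyaluronan receptor of lymphatic endothelium, had 5.798, 13.9 and 8.33 CPM in proximal libraries 2, 3 and 4, against 0.233, 0.134 and 0.0994 CPM in distal libraries 2, 3 and 4. Proximal library 3 was the highest, the distal values rest on 5, 3 and 2 reads, and the ratio was 59.2-fold (95% counting interval 32.0 to 124). Of 12 tested endothelial and lymphatic genes, 5 were higher in proximal tissue and 1 was lower. The scavenger receptor stab2 was the highest by fold change (log2 fold change 1.90, SE 0.31, adjusted p = 0.00288) and CLDN5 (ENSDARG00000043716) was the lower gene (log2 fold change -2.67, SE 0.29, adjusted p = 3.98e-04). PROX1, the lymphatic transcription factor, had 8.60 CPM in proximal and 11.3 CPM in distal libraries (log2 fold change -0.28, SE 0.16, adjusted p = 0.237), and lyve1b was too low to test. heyl, a Notch-responsive repressor, averaged 3.71 CPM in proximal and 0.330 CPM in distal libraries.

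Secreted proteases and a growth factor made up 5 members. PLAU, the urokinase-type plasminogen activator, averaged 24.8 ± 4.70 CPM in proximal and 3.30 ± 0.897 CPM in distal libraries (SD, n = 3 each). The serine protease htra4 had a log2 fold change of 4.30 and the growth factor hgfa 2.87. PAPPA2, a protease of insulin-like growth factor binding proteins, had distal values of 1, 2 and 1 reads, and its ratio was 67.3-fold (95% counting interval 25.99 to 249). Members grouped under nerve and signalling were NDRG4, the G protein subunit GNG3, the kinase AATK, the acid-sensing channel asic1b and the prion protein gene prnpb. Their log2 fold changes ran from 2.72 to 4.93.

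A further 11 named genes were lgals1l1, a galectin, the actinoporin-like gene apnl, the LIM-domain gene FHL1, the kynurenine aminotransferase KYAT3, the interferon-induced gene ifi44a3, the Ras-like genes rerglb and rasef, the ferlin fer1l4, KANK1, ly6m4 and oacyl. apnl (ENSDARG00000090900) had 161, 147 and 182 CPM in proximal libraries 2, 3 and 4, against 21.8, 23.1 and 24.8 CPM in distal libraries 2, 3 and 4, with little spread within either region. FHL1 averaged 27.7 ± 1.99 CPM in proximal and 1.16 ± 0.460 CPM in distal libraries (SD, n = 3 each), with a log2 fold change of 4.69 (SE 0.26).

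The remaining 20 genes have provisional names or none, and their log2 fold changes ran from 2.82 to 7.01. si:dkey-183i3.5 (ENSDARG00000056248) had 103, 131 and 179 CPM in proximal libraries 2, 3 and 4, against 0.698, 1.88 and 0.895 CPM in distal libraries 2, 3 and 4, the largest gap after elnb once distal values under 3 reads are raised to 3 reads, with a log2 fold change of 7.01 (SE 0.38). si:dkey-65b12.6 (ENSDARG00000076830) had 32.1, 35.5 and 22.1 CPM in proximal libraries 2, 3 and 4, against 0.698, 0.895 and 0.597 CPM in distal libraries 2, 3 and 4. ENSDARG00000114516, without a name, had 103, 79.4 and 72.2 CPM in proximal libraries 2, 3 and 4, against 9.31, 9.35 and 10.04 CPM in distal libraries 2, 3 and 4. linc.pou2af1 averaged 41.1 ± 3.29 CPM in proximal and 1.18 ± 0.349 CPM in distal libraries and zgc:172053 averaged 33.7 ± 9.65 CPM in proximal and 0.903 ± 0.313 CPM in distal libraries (SD, n = 3 each). ENSDARG00000097416 had 2.88, 2.74 and 3.77 CPM in proximal libraries 2, 3 and 4, against 0.0466, 0.0447 and 0.0497 CPM in distal libraries 2, 3 and 4. Its lowest proximal value was 55.2 times its highest distal value, or 18.4 times with the floor of 3 reads, and its distal values rest on 1, 1 and 1 reads.

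Several lists held no member. Erythrocyte genes gave 0 calls of 8 in either direction in the edgeR test, with 0 at an unadjusted p under 0.05, 0 calls with DESeq2 and 1 gene higher in proximal tissue with the replicate block. Osteoclast genes gave 2 higher and 2 lower of 10, led by ocstamp (log2 fold change 2.12, SE 0.34, adjusted p = 0.00241) and MMP9 (log2 fold change -1.57, SE 0.18, adjusted p = 5.48e-04). Muscle genes gave 4 higher and 1 lower of 9, or 4 lower with the replicate block, and 2 higher without distal or proximal library 3 and 3 lower without distal library 4. The highest was the smooth muscle actin acta2 (log2 fold change 1.92, SE 0.51, adjusted p = 0.0234). The lower gene was TNNT3 (ENSDARG00000068457; log2 fold change -1.70, SE 0.29, adjusted p = 0.00323), which carries the name of a skeletal muscle troponin. It had 4.43 CPM in proximal and 15.8 CPM in distal libraries. The markers ckma, actc1b and tpma were too low to test, and 3 genes of the list had 0 reads in every library. Schwann cell genes gave 4 higher and 1 lower of 7. Joint genes gave 2 higher and 5 lower of 8, with GDF5 higher (log2 fold change 4.10, SE 0.62, adjusted p = 0.00192) at 0.580 CPM in proximal tissue and pthlha lower (log2 fold change -2.11, SE 0.17, adjusted p = 8.33e-05). Potassium channel and calcineurin genes gave 2 higher of 10, led by RCAN3 (log2 fold change 0.60, SE 0.17, adjusted p = 0.0289). With the replicate block 3 were higher and 2 lower, the lower genes being KCNJ13 (log2 fold change -0.90 and adjusted p = 0.128 without the block, adjusted p = 4.95e-05 with it) and slc12a7a (log2 fold change -0.47, adjusted p = 0.0539 and 7.15e-04). Without the block, the count of 2 dropped to 0 without distal library 2 or 3 and to 1 with library size alone or without any of the other 4 libraries.

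**Figure D3:**
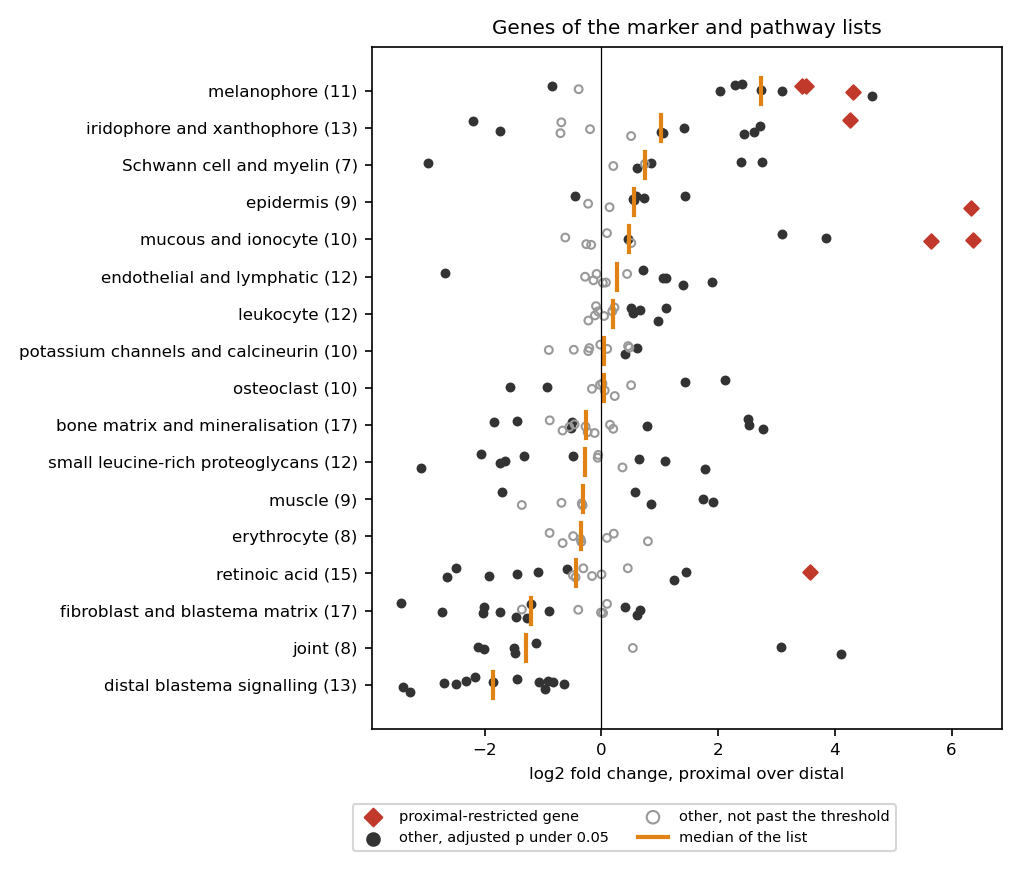
Log2 fold change of proximal over distal for each tested gene of 17 marker and pathway lists (number tested in brackets), with proximal-restricted genes as red diamonds, other called genes filled, other genes open and the list median in orange. Red diamonds appear in the melanophore, iridophore and xanthophore, epidermis, mucous and ionocyte, and retinoic acid rows; the medians run from -1.86 for distal blastema signalling to 2.73 for melanophore genes.

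Relatives of the members varied in direction. The families were picked after their values were seen. In 15 families with both a member and another tested gene, 23 other genes were tested, of which 9 were higher in proximal tissue, 4 lower and 10 not called. The share of all genes tested was 14.4% higher and 15.3% lower. Collagen VII showed opposite directions: col7a1 had 701 CPM in proximal and 1540.2 CPM in distal libraries (log2 fold change -1.02, SE 0.13, adjusted p = 8.26e-04), against the higher proximal levels of both col7a1l genes. The collagen XVII gene col17a1b was higher in proximal tissue by a smaller step than col17a1a (log2 fold change 1.33, SE 0.13, adjusted p = 2.78e-04). Among laminin beta chains, lamb2l lay just outside the rule (log2 fold change 3.13, SE 0.24, adjusted p = 6.97e-05), and LAMB1 (ENSDARG00000101209) was lower (log2 fold change -1.51, SE 0.11, adjusted p = 6.75e-05).

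Frizzled-related proteins were split as well. sfrp2l had 2.43 CPM in proximal and 28.6 CPM in distal libraries (log2 fold change -3.43, SE 0.27, adjusted p = 8.17e-05), and the other SFRP1 gene (ENSDARG00000057678) had 62.1 CPM in proximal and 63.6 CPM in distal libraries (log2 fold change 0.08, SE 0.11, adjusted p = 0.590). ccl27a had 46.6 CPM in proximal and 59.0 CPM in distal libraries (log2 fold change -0.22, SE 0.15, adjusted p = 0.296), beside ccl27b, and the gene named MAMDC2 had 73.8 CPM in proximal and 79.8 CPM in distal libraries (log2 fold change 0.01, SE 0.10, adjusted p = 0.977), beside mamdc2b. FOXA1 was lower in proximal tissue (log2 fold change -1.51, SE 0.26, adjusted p = 0.00396) where foxa3 was higher. The other PAX7 gene, ENSDARG00000100398, was higher (log2 fold change 2.44, SE 0.35, adjusted p = 0.00150), as was ccl25a (log2 fold change 2.45, SE 0.40, adjusted p = 0.00271). A p-value past the threshold in these sentences tests each relative between regions and not its difference from the member.

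**Figure D4:**
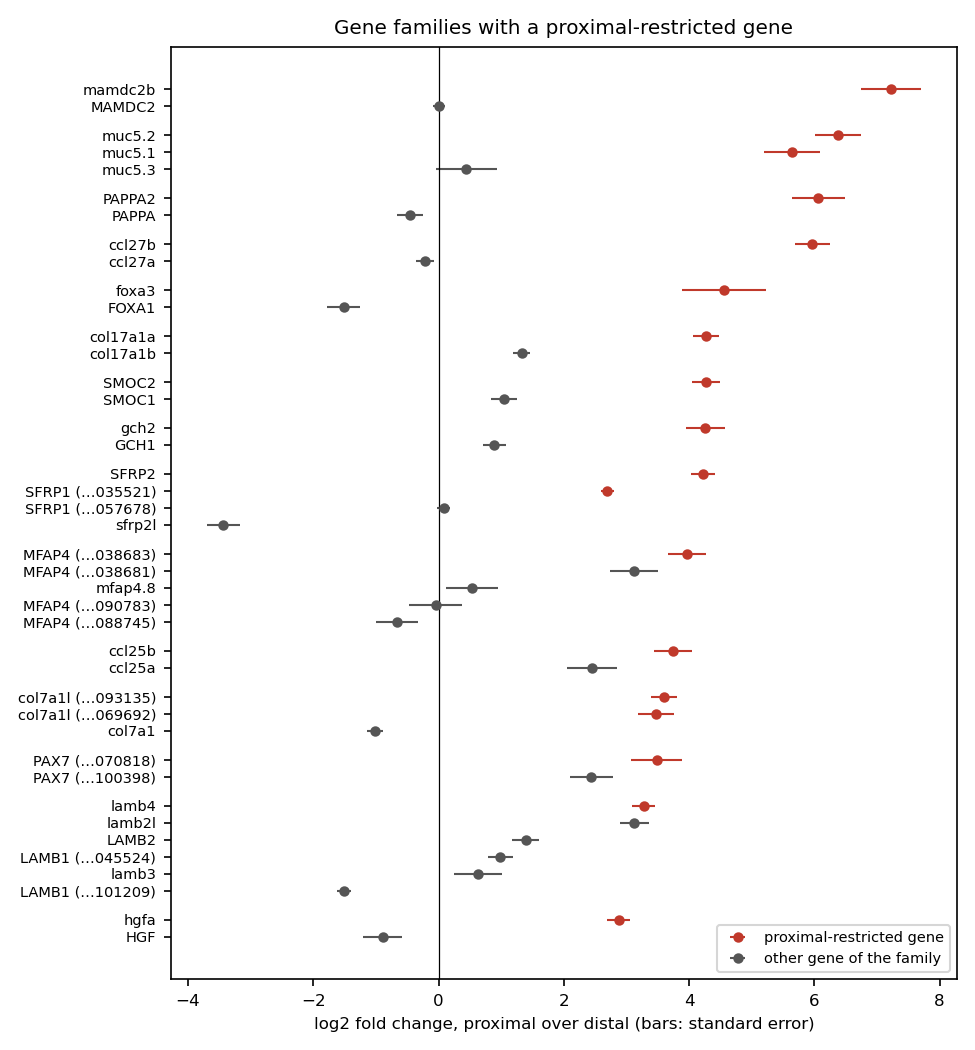
Log2 fold change of proximal over distal with its standard error for the tested genes of 15 families that hold a proximal-restricted gene (red) and another gene (grey). The grey points run from -3.43 for sfrp2l to 3.13 for lamb2l, all left of the red points of their family, an order that the rule largely fixes.

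The members varied more between proximal replicates than all genes above the same level, to which they were not matched. The median coefficient of variation over the 3 proximal libraries was 20.3% for the 83 genes and 11.7% for the 13688 genes with a mean proximal level of at least 3 CPM, a description without a test. The highest and lowest proximal library differed at least 2-fold in 16 members, or 19.3%, against 5.41% of those genes. Proximal library 4 was the highest for 38 members (45.8%), library 3 for 30 (36.1%) and library 2 for 15 (18.1%). Among all genes at that level the shares were 26.6%, 42.2% and 31.1% for libraries 4, 3 and 2. Least variable was si:ch73-389b16.1, at 2.84%, and most variable was fabp1b.2, at 122%.

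Replicate number 4 was compared with the mean of numbers 2 and 3 in a model that also held region. The rule did not use this contrast, but its limits on the lowest and the mean proximal level bear on which genes could be members. fabp1b.2, lgals4, KANK1 and ENSDARG00000097416 reached the mean of 3 CPM only through proximal library 4. Without it the mean was 0.919 CPM for fabp1b.2 and 1.65 CPM for lgals4. KANK1 had 2.12 and 2.83 CPM in proximal libraries 2 and 3, and ENSDARG00000097416 had 2.88 and 2.74 CPM. The higher calls of fabp1b.2, lgals4 and KANK1, counted below, are therefore partly set by the rule. ENSDARG00000097416 was not called. Of the 83 genes, 16 (19.3%) were called higher and 9 (10.8%) lower in number 4, where 8.06% and 8.53% of all genes tested were. The higher genes included krt1-19e (log2 fold change 1.06, SE 0.13, adjusted p = 1.78e-04), cfd (log2 fold change 1.30, SE 0.15, adjusted p = 1.67e-04), RBP4 (log2 fold change 0.73, SE 0.10, adjusted p = 6.09e-04) and ccl25b (log2 fold change 0.72, SE 0.11, adjusted p = 8.11e-04). fabp1b.2, a member only through proximal library 4, was also among them (log2 fold change 2.94, SE 0.38). The lower genes included muc5.2 (log2 fold change -0.65, SE 0.13, adjusted p = 0.00525), gch2 (log2 fold change -0.76, SE 0.15, adjusted p = 0.00516), mamdc2b (log2 fold change -0.87, SE 0.16, adjusted p = 0.00405), elnb (log2 fold change -0.54, SE 0.16, adjusted p = 0.0337) and pmela (log2 fold change -0.51, SE 0.15, adjusted p = 0.0367). In all 16 higher genes proximal library 4 was the highest proximal library, and in all 9 lower genes it was the lowest. Distal library 4 deviated to the same side in 12 of the 16 and 8 of the 9, on log2 values with 0.1 CPM added. It is part of the contrast, so this is no separate replication. Same-numbered samples deviated together, so the libraries of number 4 are a pair and not independent. The p-values of this contrast rest on how number differences varied between regions, not on the spread between independent pools.

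By role, 3 of the 7 chemokine and complement members and 2 of the 6 keratin and basement membrane members were higher in number 4. Of all genes tested 8.06% were higher and 8.53% lower, and no role was tested as a set. Of the 5 pigment members 2 were lower. Some other roles were split, with 2 higher and 3 lower of 9 elastic fibre and matrix members, 2 higher and 1 lower of 5 retinoid and lipid members, and 1 higher and 1 lower of 3 mucus cell members. These counts depend on the test and on single libraries. DESeq2 called 6 members higher (7.23%) and 2 lower (2.41%), where it called 4.59% and 4.42% of all genes. Without proximal library 2 the edgeR counts were 8 (9.64%) and 0, where 6.02% and 6.31% of all genes were called. Without proximal library 3 they were 7 (8.43%) and 5 (6.02%), where 5.64% and 6.55% of all genes were. Calls that held in all 8 alternatives were those of krt1-19e, RBP4, ccl25b, zgc:171775 and the unnamed ENSDARG00000100449, all higher. Blood moved with the same contrast: 7 of the 8 tested erythrocyte genes were lower in number 4, and their summed level was 20.9 CPM in proximal library 4, against 70.5 and 221 CPM in proximal libraries 2 and 3. In distal tissue it was 26.8 CPM in library 4, against 44.8 and 494 CPM in libraries 2 and 3. The part of blood in the replicate differences of the members was not tested.

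**Figure D5:**
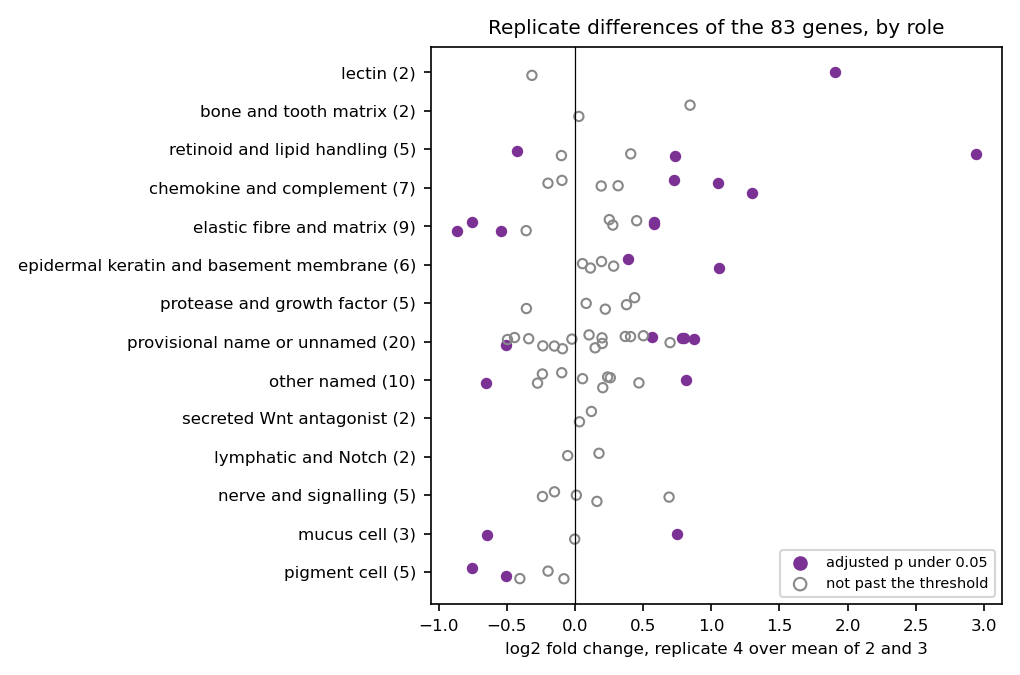
Log2 fold change of replicate number 4 over the mean of numbers 2 and 3 for each of the 83 genes, grouped by role (number of genes in brackets), with genes past an adjusted p of 0.05 filled. All 5 pigment cell genes lie left of 0, and 2 of them are called. The 3 called chemokine and complement genes lie right of 0, while c4 and C1QTNF2 of that role lie left of 0 and are not called.

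The genome order of the members is given without a share over all genes, so it is a description only. By the order of protein-coding genes in the RefSeq annotation of assembly GRCz12tu, used only for order, 65 members could be placed by name and 3 neighbouring pairs lay within 10 genes of each other. muc5.1 and muc5.2 were next to each other. ccl44 and ccl25b were 3 genes apart, and si:ch211-76l23.4 and lgals1l1 were 5 genes apart. In number 4, muc5.1 was called higher (log2 fold change 0.74, SE 0.22, adjusted p = 0.0367), a call that held in 2 of the 8 alternatives, and the lower call of muc5.2 held in 7 of 8. The difference between the mucins was not tested.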

How the data were processed

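RNA from 3 proximal and 3 distal samples was purified with TRIzol, and libraries were made from 1 µg with the Kapa stranded mRNA-Seq kit, per the labels' protocols. The deposited files hold read counts per Ensembl gene. TopHat2, HTSeq and the builds GRCz11 and danRer11 are named, without versions, in the submitters' processing notes; strand setting, annotation release and fish age are not given in the sources used here. The row without a gene name equals the sum of the gene rows and, like the rows of unassigned reads, was kept out. Reads that map to several places were not counted to genes.

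CPM was each count per 1000000 gene counts of its library. Gene names matched 29178 of 31901 identifiers. Genes were kept by filterByExpr at its minimum count of 10 (18455 genes), scaled by TMM and tested with edgeR 4.0.16 in R 4.3.3 (quasi-likelihood F-test, Benjamini-Hochberg adjustment, threshold 0.05). Replicate number 4 was compared with numbers 2 and 3 in a model of region and number. DESeq2 1.42.0 was an alternative, and the code was checked on simulated counts. Same-numbered samples deviated together from their group means (r = 0.42, 0.56 and 0.68 for numbers 2, 3 and 4, over 18455 genes), so the numbers pair the samples, and block results stand beside the total and the lists they move; in the lists given without one the block moved a count by at most 1 gene. Libraries of a group differed by more than sampling noise.

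The members and the 17 gene lists were chosen with earlier results of these data known. Of 203 listed symbols 195 matched. Values in every library are given for the 10 members of highest level, the 10 of largest gap (distal values under 3 reads raised to 3) and every member on a list, and beside them the genes at the limits. List genes outside the set are named for the largest called change in each direction. TP63, AGR2, TRPV6, foxi3a, foxi3b, ca2, ATP1B1, a second MITF, SOX10 as a pigment gene, WNT5A, WNT5B, dkk1b, ALDH1A2, PROX1, bglap, lyve1b, KCNJ13 and slc12a7a were named after their values were seen, as were the families. Intervals and floors cover counting error only. Values of some single genes are not reported here.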

Additional observations from a re-analysis of the deposited data

How the results depend on the processing

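The 83 genes were chosen on the libraries that describe them. The rule gave 148 genes at a 3-fold limit, 33 at a 10-fold limit and 46 at a mean proximal level of at least 10 CPM. Leaving out 1 library gave 84 to 101 genes. These included all 83 except without proximal library 3 (81 of the 83) and without proximal library 4 (79 of the 83). CPM on TMM-scaled library sizes gave 95, which included all 83. Leaving out the 10 most abundant genes from the total put the members' share at 1.21% in proximal and 0.0963% in distal libraries, and counting all uniquely aligned reads put it at 0.875% and 0.0700%.

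With the replicate block, 8939 genes were called between regions, 4633 higher and 4306 lower in proximal tissue. Leaving out 1 library gave 1746 to 2443 genes higher in proximal tissue, the lowest without distal library 3. For number 4, DESeq2 called 6 members higher and 2 lower, against 4.59% and 4.42% of all genes. Leaving out 1 library gave 7 to 16 members higher and 0 to 6 lower, against 4.503% to 6.38% and 4.77% to 7.26% of all genes. Among 231 alternative log2 fold changes of the genes given in full, the largest move was that of mamdc2b. It went from 7.23 (SE 0.48) to 8.23 without distal library 3. Some other genes also moved by more than their SE, such as muc5.2, fitted at 6.37 (SE 0.37) and ranging from 6.09 to 6.86. No direction was reversed under the alternatives run, which the 5-fold gap of the rule fixes in advance. List counts moved by over 1.5 times in 39 of 374 alternative values. Members near 3 CPM rest on few distal reads, which limits their fold changes.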
